A study of Mus musculus with 12 samples.

Results

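The genes described are 9 regulators of G-protein signalling, namely Rgs2, Rgs3, Rgs4, Rgs5, Rgs10, Rgs12, Rgs16, Rgs17 and Rgs19, taken by gene symbol from the 48321 genes listed in an RNAseq data set of differentiated murine brown adipocytes. The set was chosen by measured values, the level of Rgs2, the most abundant of the genes that respond to cAMP, and that of Rgs17, which was higher in the cells that carried tSema4B. Those values, the level of Rgs2 with its response to norepinephrine (NE) and every comparison of Rgs17, are therefore given as a description with no test. The difference of Rgs2 between the lines was not among the values named in that choice and is tested. It comes from the same libraries as the level that was used.

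The data were 12 libraries in 4 groups of 3, namely vector and tSema4B cells, each unstimulated or treated with NE. The cells were brown preadipocytes from interscapular brown fat of wild-type C57BL/6J mice, for which the study's methods name a newborn mouse, and were immortalized with the SV40 large T antigen. They were transduced with lentivirus made from pLEX, labelled as empty or as encoding tSema4B, a Flag-tagged truncated form of the membrane protein Sema4B that mimics its cleaved ectodomain, and were selected with puromycin. Both lines were induced with IBMX, rosiglitazone, dexamethasone, insulin and T3, kept afterwards with insulin and T3 alone and used at day 8, when the NE groups received 2 µM NE for 6 h, in serum-free medium with BSA. Each construct was a single stable line and the 3 libraries within a group are described as technical replicates. The p-values below measure only the spread between these libraries. The comparisons ask how NE changed these genes in each line and how tSema4B changed them without and with NE.

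The libraries held between 2000780 and 5409583 reads on genes, and a single read was worth 0.593 to 1.55 normalized counts, the unit in which values are given here. The 3 vector NE libraries were the deepest, with 4739777 to 5409583 reads, and the 3 tSema4B unstimulated libraries had 2000780 to 2541747. Sema4b, the gene of the construct, had a mean of 116797 normalized counts in vector unstimulated and 281514 in tSema4B unstimulated libraries, and of 74266 and 234276 after NE, with every tSema4B library above every vector library. It took 3.58 to 4.02% of reads in vector unstimulated and 2.04 to 2.57% in vector NE libraries, where it ranked 2 of the 48321 genes, so the line labelled as empty vector was not low in Sema4b, and the tSema4B line had 2.41 and 3.15 times its mean. Counts per gene cannot tell transcripts of the cells' own gene from those of a construct.

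RGS proteins switch G-protein signals off. A receptor loads the alpha subunit of a G protein with GTP, and the RGS domain speeds the hydrolysis of that GTP, which returns the subunit to its resting state. In brown adipocytes NE acts mainly through beta-adrenergic receptors and the stimulatory G protein, which raises cAMP and with it lipolysis and the thermogenic gene Ucp1. The 9 genes fall into 3 subfamilies. Rgs2, Rgs3, Rgs4, Rgs5 and Rgs16 belong to the R4 subfamily of mostly small proteins that act on the Gi and Gq classes, with Rgs2 acting mainly on Gq. Rgs10, a small protein, and Rgs12, a large scaffold, belong to R12 and act on Gi. Rgs17 and Rgs19 belong to RZ, whose members carry a cysteine string near the amino terminus and act on Gz and Gi.

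Rgs2 and Rgs4 were the R4 genes with the highest levels, and they differed in opposite directions with NE. The 250 bases before the transcript start of each are shown, from RefSeq (GRCm38.p6), read 5′ to 3′ on the minus strand of chromosome 1, which is the strand of both. Capitals mark TGACG or CGTCA, the core of the cAMP response element on either strand. These promoters and this motif were chosen after the values were seen, and 2 other motifs were also looked at.
Rgs2, chr1:144004150-144004399: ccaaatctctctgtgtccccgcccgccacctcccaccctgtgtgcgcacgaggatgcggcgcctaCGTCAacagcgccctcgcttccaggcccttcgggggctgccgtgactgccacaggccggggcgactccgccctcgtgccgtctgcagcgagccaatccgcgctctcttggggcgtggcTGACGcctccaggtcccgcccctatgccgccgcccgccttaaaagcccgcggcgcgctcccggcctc
Rgs4, chr1:169747643-169747892: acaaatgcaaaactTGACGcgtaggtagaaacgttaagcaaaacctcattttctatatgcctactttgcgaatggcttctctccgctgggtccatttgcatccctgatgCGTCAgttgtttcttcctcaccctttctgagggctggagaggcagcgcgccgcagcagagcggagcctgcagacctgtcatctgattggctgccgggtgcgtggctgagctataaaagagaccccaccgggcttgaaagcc
The Rgs2 window held the core 185 to 181 bases and 67 to 63 bases before the start. The Rgs4 window held it 236 to 232 bases and 141 to 137 bases before the start. Across the 13 windows that RefSeq gives for the 9 genes, 3 windows of 3 genes held the core, the other being that of the second start of Rgs12 at 82 to 78 bases before it. The full palindrome TGACGTCA, which contains the core on both strands, was in 0 of the 13. Among all 32851 promoter windows of the same length 17.8% held the core, 3.902% held it at least 2 times and 1.55% held the palindrome. A match describes these letters and does not show that a factor binds there.

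Compared per kilobase of exon, the scale on which levels of different genes can be set side by side, Rgs2 had the highest level of the 9 genes, with a mean over the 12 libraries of 161 normalized counts per kb. Rgs19 followed at 46.6 and Rgs4 at 22.5. Rgs10 at 15.9, Rgs17 at 10.5 and Rgs12 at 10.5 formed a middle group, and Rgs16 at 2.88, Rgs3 at 2.71 and Rgs5 at 2.67 normalized counts per kb were the lowest. All 9 passed the filter of at least 10 normalized counts in at least 3 libraries, but Rgs16 did so with 3 libraries only, 2 of vector NE and 1 of tSema4B NE, and Rgs5 with 8.

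The order changed with the line and with NE. In vector unstimulated libraries Rgs2 (156 ± 9.87 normalized counts per kb, SD, n = 3) stood above Rgs19 (46.8 ± 1.49) and Rgs4 (29.1 ± 13.7). Rgs12 (11.5 ± 2.95) and Rgs10 (10.2 ± 2.44) lay within their spread of each other. Rgs17 (5.12 ± 0.476) stood above Rgs3 (3.66 ± 0.810) in every library, and Rgs5 (4.20 ± 2.42) overlapped both. In tSema4B unstimulated libraries Rgs2 was at 88.3 ± 8.97 normalized counts per kb, and Rgs4 (42.0 ± 14.3), Rgs19 (28.1 ± 2.57), Rgs10 (25.2 ± 10.3) and Rgs17 (21.3 ± 2.05) followed by their means. Across these libraries Rgs4 overlapped Rgs19, and Rgs10 overlapped Rgs4, Rgs19 and Rgs17. Rgs17 was thus among the lower genes in the vector line and level with the middle ones in the tSema4B line.

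Rgs2 made up 54.4 to 61.4% of the summed level per kb of the 9 genes in vector unstimulated libraries and 69.1 to 73.1% in vector NE libraries. Its share was lower in the tSema4B line, at 32.6 to 46.8% without NE and 53.5 to 61.8% with it. The summed level itself ran from 264 to 275 normalized counts per kb in vector unstimulated, 208 to 244 in tSema4B unstimulated, 330.2 to 377 in vector NE and 233 to 271 in tSema4B NE libraries. Rgs4 took 5.45 to 15.6% of the sum in vector unstimulated and 12.6 to 22.1% in tSema4B unstimulated libraries, but at most 4.62% after NE.

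**Figure D1:**
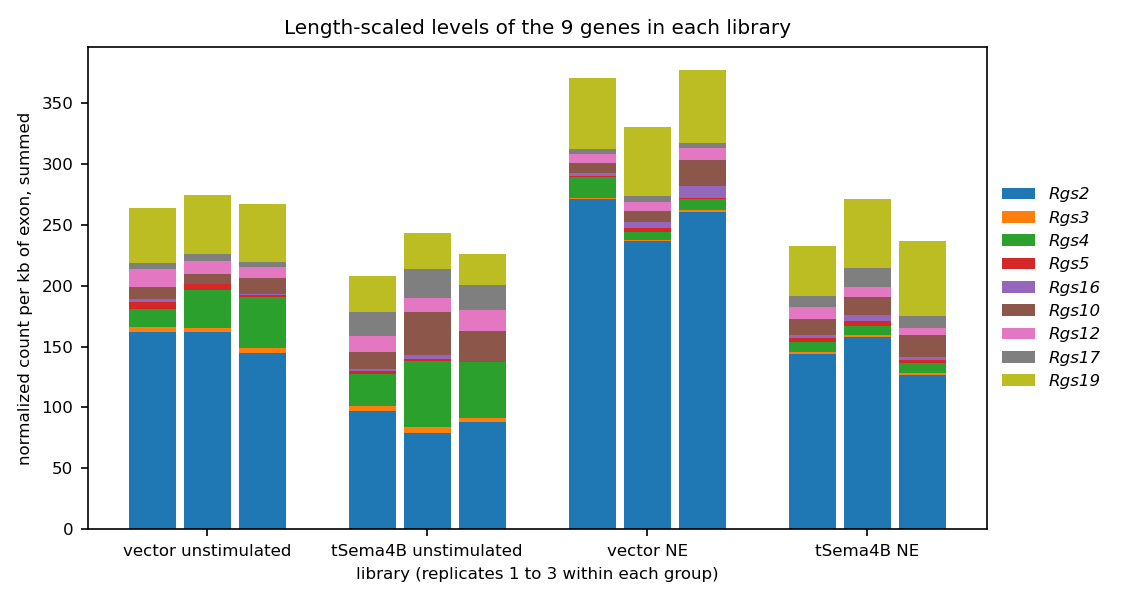
Stacked bars give the level of each of the 9 genes in normalized counts per kb of exon, one bar per library and 3 bars per group. The Rgs2 segment is the largest in every library, is largest of all in vector NE (69.1 to 73.1% of the bar) and smallest in tSema4B unstimulated (32.6 to 46.8%).

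Of the 6 genes other than Rgs2, Rgs17 and Rgs16, the last of which passed the filter only through NE libraries and is not tested for NE, 2 were lower with NE in vector cells, Rgs3 and Rgs4, and 0 were higher. A gene passed the test at an adjusted p of 0.05 or less (limma on log2 normalized counts with a pseudocount of 1, adjusted over the 11998 genes tested) and was called when its log2 fold change was also at least 1 in size. Both were called. Of all genes tested in this comparison 4.78% were lower and 6.82% higher by the adjusted p, and 0.975% and 1.66% were called lower and higher. In tSema4B cells 2 of the 6 were lower with NE, Rgs4 and Rgs12, and 1 higher, Rgs19, with Rgs4 alone called, against 2.58% lower and 3.68% higher of all genes, 0.758% and 1.31% of them called. Between the lines Rgs16 is not counted either, since it reached 10 normalized counts in 2 vector NE and 1 tSema4B NE libraries only. Among the 6 genes and Rgs2, Rgs2 and Rgs19 were lower in tSema4B cells without stimulation and 0 were higher. Of all genes 7.39% were lower (2.71% called) and 5.64% higher (1.11% called). After NE only Rgs2 passed among the same genes, lower in tSema4B cells, against 11.2% lower (3.73% called) and 9.79% higher (2.03% called).

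The median log2 fold change of those 6 genes was -0.82 with NE in vector cells and -0.71 in tSema4B cells, beside -0.02 and -0.0048 over all genes tested. Over all 9, the untested ones included, it was -0.38 and -0.61, so the median depends on which genes are left out. Between the lines that of the 8 genes other than Rgs17, with the uncounted Rgs16 included, was 0.05 without stimulation and -0.14 after NE, beside -0.0025 and -0.01. Both NE comparisons use the libraries that the line comparisons use, so these values are not independent. With 3 libraries against 3, an exact permutation test of a single gene cannot go below p = 0.1 (two-sided).

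**Figure D2:**
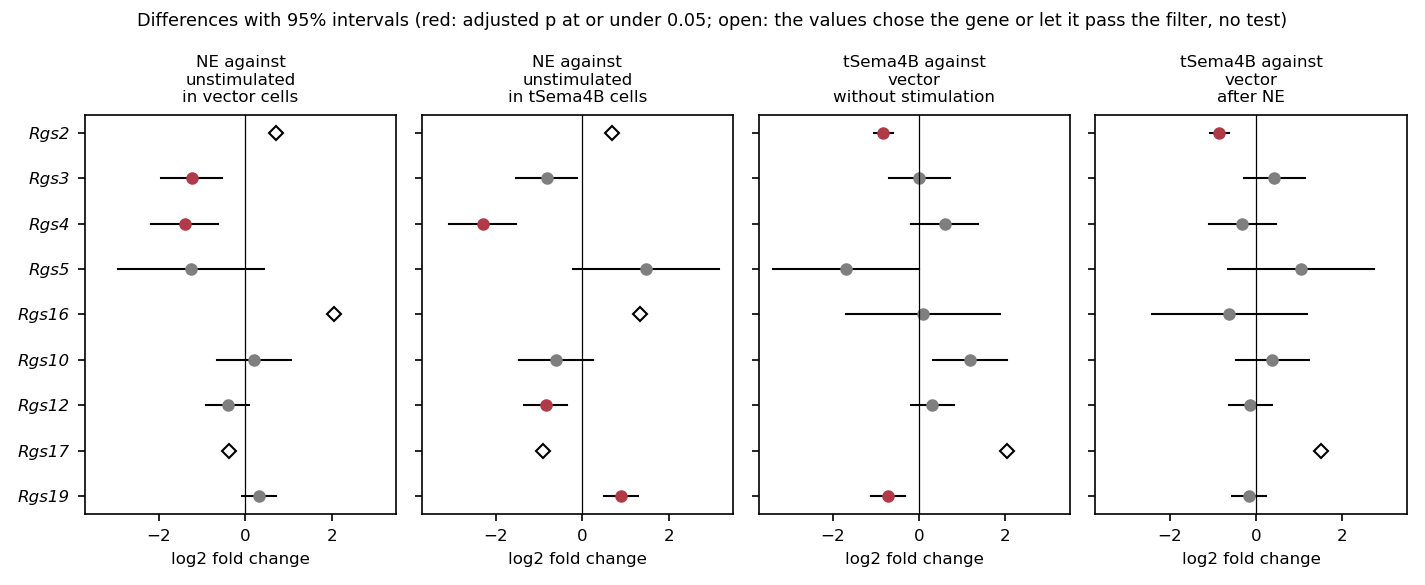
Points give the log2 fold change of each gene on the scale of log2(normalized count + 1) in 4 comparisons, with bars for the 95% interval from limma and red for an adjusted p of 0.05 or less. Open diamonds have no test, since the values chose the gene (Rgs2 and Rgs17) or let it pass the filter (Rgs16). Between the lines Rgs16 is drawn with its interval but is not counted. Rgs4 lies left of 0 with NE in both lines, Rgs2 left of 0 in tSema4B cells in both conditions, and the intervals of Rgs5 and Rgs16 are the widest.

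Rgs2 (ENSMUSG00000026360, GRCm38 chromosome 1, 143999338 to 144004161, minus strand), the most abundant of the 9, was higher with NE in both lines and lower in tSema4B cells in both conditions. Its normalized counts were 587, 589 and 526 in vector unstimulated libraries and 982, 857 and 945 in vector NE libraries. In the tSema4B line they were 353, 288 and 320.4 unstimulated and 521, 571 and 459.8 with NE. No group overlapped another except vector unstimulated and tSema4B NE, where the tSema4B line with NE overlapped the vector line without it.

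As a description, the mean of Rgs2 was 1.64-fold higher with NE in vector cells (928 ± 64.4 against 567 ± 35.8 normalized counts, SD, n = 3) and 1.62-fold higher in tSema4B cells (517 ± 55.7 against 320.3 ± 32.5). Between the lines, Rgs2 fell by 0.83 on the log2 scale in tSema4B cells without stimulation (SE 0.11, 95% interval -1.05 to -0.60, adjusted p = 1.29e-05) and by 0.85 after NE (SE 0.11, 95% interval -1.07 to -0.62, adjusted p = 8.60e-06). Both held under all 18 alternatives of the processing. The interaction, the difference between the NE effects in the 2 lines, was -0.02 on the log2 scale, again as a description.

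Rgs2 was set against 18 other genes that cAMP is known to induce. It ranked 1 of 19 by mean normalized count in all 4 groups, a description that restates how the set was chosen. Per kb of exon it ranked 1 in 3 groups and 2 in tSema4B NE, where Junb, a subunit of the AP-1 transcription factor, had 155 and Rgs2 had 143 normalized counts per kb. Of the 15 list genes that passed the filter, Ucp1 and Il6 did so only through NE libraries, in which they are high, and are left out of the counts. Of the other 13, 5 rose with NE in vector cells (all 5 called) and 2 in tSema4B cells (both called), and 0 fell in either. Of all genes tested 6.82% and 3.68% were higher with NE in these lines, 1.66% and 1.31% called. For the interaction 0 of the 15 passed, so the NE effects on these genes were not shown to differ between the lines. Ucp1, which uncouples mitochondrial respiration, was higher by 4.42 on the log2 scale with NE in vector cells, and in tSema4B cells it had 0 reads in all unstimulated libraries and 62.9 ± 3.10 normalized counts (SD, n = 3) with NE. Crem, a transcription factor of the cAMP pathway, rose by 1.69 (SE 0.20) in vector and 1.40 (SE 0.20) in tSema4B cells, and Junb by 1.59 (SE 0.14) and 1.24 (SE 0.14). The log2 difference of Rgs2 with NE, as a description, was 0.71 and 0.69, from a higher unstimulated level than these genes. The median of the 13 was 0.84 in vector and 0.79 in tSema4B cells, beside -0.02 and -0.0048 over all genes.

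Rgs4 (chromosome 1, 169741477 to 169747642, minus strand), which acts on Gi and Gq and is best known from neurons and heart, was lower with NE in both lines. It had 44.5, 97.5 and 129 normalized counts in vector unstimulated and 53.1, 19.6 and 27.5 in vector NE libraries, and these groups overlapped. In tSema4B cells it had 81.0, 167 and 142 unstimulated and 24.7, 23.7 and 25.1 with NE, with no overlap. The unstimulated libraries were widely spread in both lines (SD 42.5 and 44.3), while the tSema4B NE libraries lay close together (SD 0.735).

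With NE, Rgs4 fell by 2.30 on the log2 scale in tSema4B cells (SE 0.37, adjusted p = 3.91e-04), which held under all 18 alternatives, and by 1.40 in vector cells (SE 0.37, adjusted p = 0.0166). The call in vector cells was lost when vector unstimulated replicate 2 (adjusted p = 0.0783) or replicate 3 (0.113), or vector NE replicate 2 (0.106) or replicate 3 (0.0694), was left out. The interaction of -0.90 (95% interval -1.998 to 0.19, adjusted p = 0.596) did not pass, nor did the difference between the lines in either condition (0.59 without stimulation, 95% interval -0.19 to 1.36, and -0.31 after NE, 95% interval -1.09 to 0.46).

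Rgs3 (chromosome 4, 62559847 to 62704001, plus strand), an R4 gene with several long and short protein forms, had 44.5, 29.4 and 44.7 normalized counts in vector unstimulated and 12.8, 16.0 and 19.6 in vector NE libraries. In tSema4B cells the values were 39.3, 47.95 and 31.5 unstimulated and 23.6, 21.8 and 19.8 with NE. Every NE library lay below every unstimulated library in both lines. In vector cells Rgs3 fell by 1.24 on the log2 scale (SE 0.34, adjusted p = 0.0196), whereas in tSema4B cells its difference of -0.82 did not pass (SE 0.34, adjusted p = 0.169). The interaction was 0.42 (95% interval -0.58 to 1.41, adjusted p = 0.820), so the effects in the lines were not shown to differ.

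Rgs3 rested on 15 to 41 reads a library. Its call in vector cells was lost with a pseudocount of 10, where the log2 difference was -0.91 and still passed the test, without the filter on low values (adjusted p = 0.0507) and when vector unstimulated replicate 1 (0.0868) or replicate 3 (0.0816), or vector NE replicate 1 (0.0850) or replicate 2 (0.0559), was left out. Between the lines its mean was nearly the same without stimulation, 39.5 ± 8.75 in vector and 39.6 ± 8.24 in tSema4B cells (SD, n = 3), with a 95% interval of the log2 difference of -0.70 to 0.71.

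Rgs5 and Rgs16 were near the limit of detection. Rgs5 (chromosome 1, 169655501 to 169695813, plus strand), a gene known from pericytes, had 27.1, 23.5 and 6.53 normalized counts in vector unstimulated, 11.9, 10.8 and 0 in tSema4B unstimulated, 5.38, 15.4 and 2.62 in vector NE and 13.9, 18.0 and 10.6 in tSema4B NE libraries. The library at 0 allows up to 4.11 normalized counts, the value of 3 reads, and covers counting error only. None of the comparisons between 2 groups passed, with log2 differences of -1.26, 1.48, -1.70 and 1.04 (SE 0.82 each, adjusted p from 0.190 to 0.404). With a library left out, the difference with NE ran from -1.86 to -0.76 in vector and from 0.27 to 2.11 in tSema4B cells. The value of 0.27 left out tSema4B unstimulated replicate 3, the library at 0.

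Rgs5 lies beside Rgs4 on chromosome 1, 45.7 kb apart on opposite strands with 0 coding genes between them. The fitted interaction of Rgs5 was 2.74 (95% interval 0.34 to 5.13) with an unadjusted p of 0.0271 and an adjusted p of 0.401 from limma. Of the 8 pericyte and smooth muscle markers looked at, Acta2, Notch3, Mcam and Des passed the filter. Notch3 was called higher in tSema4B than vector cells after NE (log2 difference 1.13, SE 0.27, adjusted p = 0.00401), and Acta2 was lower with NE in both lines, while no other of these markers passed in a comparison of 2 groups. The summed level of the list, most of it Acta2, ran from 896 to 1338 normalized counts in vector unstimulated, 1286 to 1412 in tSema4B unstimulated, 781 to 1011 in vector NE and 699.7 to 1068 in tSema4B NE libraries. Cspg4, Kcnj8 and Abcc9, which define pericytes, had at most 11 reads in any library. The part of these markers in the Rgs5 values was not tested.

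Rgs16 (chromosome 1, 153740349 to 153745468, plus strand), an R4 gene induced by many stimuli, had 5.43, 0 and 3.27 normalized counts in vector unstimulated and 3.58, 6.19 and 0 in tSema4B unstimulated libraries. With NE it had 5.38, 11.3 and 23.6 in vector and 6.43, 10.4 and 5.29 in tSema4B cells. The highest library, vector NE replicate 3, held 36 reads. The log2 differences with NE of 2.04 in vector and 1.34 in tSema4B cells are a description with no test, since the gene passed the filter only through NE libraries. With a library left out they ran from 1.25 to 2.59 in vector and from 0.50 to 1.92 in tSema4B cells. Rgs16 shares 236 exon bases with an antisense gene, Gm28513, whose reads cannot be told apart where counting ignored strand.

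**Figure D3:**
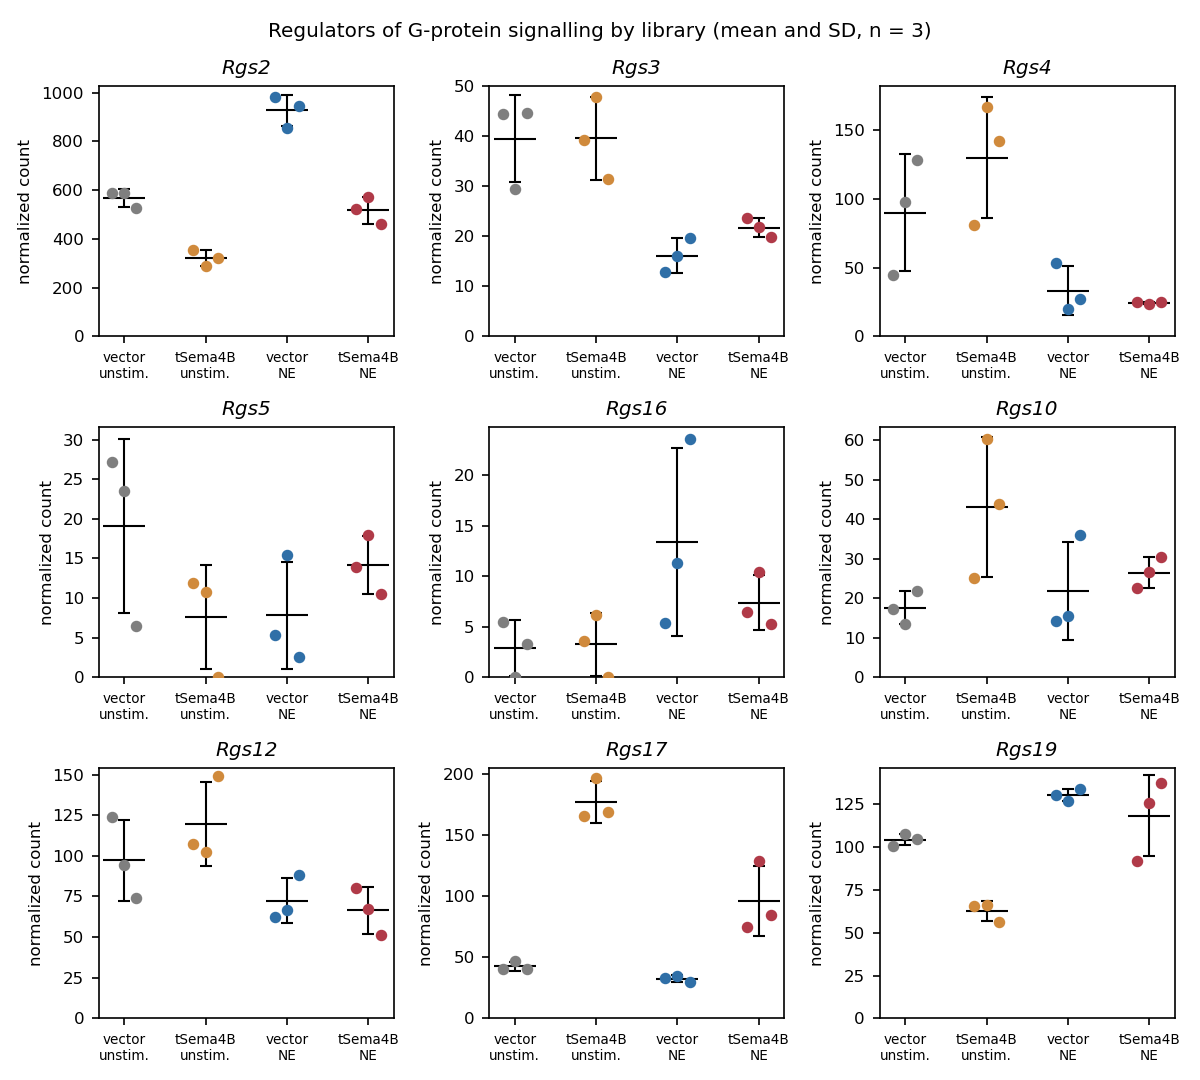
Each panel gives 1 gene, with a point for each library in normalized counts on an axis that starts at 0, a line for the mean and bars for the SD of 3 libraries in each of the 4 groups. Rgs2 and Rgs17 are the panels in which the lines do not overlap in either condition, in opposite directions, and Rgs3 is the panel in which every NE library lies below every unstimulated one.

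In the R12 subfamily, Rgs12 fell with NE in tSema4B cells and Rgs10 passed no test. Rgs12 (chromosome 5, 34949445 to 35039644, plus strand) had 124, 94.2 and 74.1 normalized counts in vector unstimulated and 62.5, 66.4 and 88.4 in vector NE libraries, and 107, 102 and 149 in tSema4B unstimulated and 80.4, 67.2 and 51.5 in tSema4B NE libraries. The groups overlapped in vector cells and not in tSema4B cells. The log2 difference with NE was -0.84 in tSema4B cells (SE 0.24, adjusted p = 0.0385) and -0.41 in vector cells (SE 0.24, adjusted p = 0.327), and the interaction of -0.43 did not pass (adjusted p = 0.719).

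Rgs12 no longer passed the test in 7 of 18 alternatives, with no filter (adjusted p = 0.0727), with the replicate number as a block (0.0513), with only the libraries compared (0.1005) and without tSema4B unstimulated replicate 1 (0.0612) or 3 (0.156) or tSema4B NE replicate 2 (0.0760) or 3 (0.145). Rgs12 shares 467 exon bases with an antisense gene, Gm43791. Between the lines Rgs12 differed by 0.30 without stimulation (95% interval -0.20 to 0.80) and by -0.13 after NE (95% interval -0.63 to 0.37).

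Rgs10 (chromosome 7, 128373621 to 128418758, minus strand), which is best known from microglia and other immune cells, had 17.4, 13.5 and 21.8 normalized counts in vector unstimulated and 25.0, 60.3 and 43.8 in tSema4B unstimulated libraries. Every tSema4B library was above every vector library in that condition, but the difference of 1.19 (SE 0.41, 95% interval 0.33 to 2.04) did not pass at an adjusted p of 0.0605. It passed with a pseudocount of 10 (adjusted p = 0.0424), with DESeq2 (0.0386) and without tSema4B unstimulated replicate 1 (0.0271), its lowest library. After NE the lines overlapped, at 14.1, 15.4 and 36.0 in vector and 22.5, 26.5 and 30.4 in tSema4B cells, and differed by 0.38 (95% interval -0.47 to 1.24). Of 5 macrophage markers, Adgre1, Ptprc and C1qa had 0 reads in all 12 libraries, and the summed level of the list was 3.36 to 7.60 normalized counts in vector unstimulated and 0 to 5.48 in tSema4B unstimulated libraries.

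Of the RZ genes, Rgs17 was among those that chose the set and Rgs19 was not. Rgs17 (chromosome 10, 5825663 to 5922400, minus strand), which acts on Gz and Gi and is known from the nervous system, had 40.2, 47.1 and 40.3 normalized counts in vector unstimulated and 166, 196 and 168 in tSema4B unstimulated libraries. After NE it had 32.9, 35.0 and 29.5 in vector and 75.1, 129 and 84.6 in tSema4B cells. All tSema4B libraries were above all vector libraries, and the 4 groups did not overlap. As a description, the mean was 4.16-fold higher in tSema4B than in vector cells without stimulation (177 ± 17.0 against 42.5 ± 3.95, SD, n = 3) and 2.96-fold higher after NE (96.1 ± 28.7 against 32.5 ± 2.78).

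The log2 difference of Rgs17 with NE was -0.91 in tSema4B and -0.38 in vector cells. These are a description with no test, since they start from the unstimulated libraries whose levels chose the gene.

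Rgs19 (chromosome 2, 181688419 to 181693977, minus strand), also called GAIP for its binding to the alpha subunit of Gi3, was lower in tSema4B cells without stimulation and rose there with NE. It had 101, 108 and 105 normalized counts in vector unstimulated and 65.6, 66.5 and 56.1 in tSema4B unstimulated libraries, with no overlap. After NE it had 130.4, 127 and 134 in vector and 92.2, 126 and 137 in tSema4B cells, which overlapped. Without stimulation Rgs19 fell by 0.73 on the log2 scale in tSema4B cells (SE 0.19, 95% interval -1.12 to -0.33, adjusted p = 0.0121), which held under all 18 alternatives. After NE the difference was -0.16 (95% interval -0.55 to 0.24, adjusted p = 0.611).

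NE raised Rgs19 in tSema4B cells by 0.89 on the log2 scale (SE 0.19, adjusted p = 0.00511), from 62.7 ± 5.74 to 118.5 ± 23.5 normalized counts (SD, n = 3). It no longer passed when only the libraries compared were fitted (adjusted p = 0.0647) and passed in the other 17 alternatives. In vector cells the groups did not overlap either, at 104 ± 3.32 and 130.5 ± 3.69, but the difference of 0.32 (SE 0.19, adjusted p = 0.330) did not pass. The interaction of 0.57 had an unadjusted p of 0.0450 and an adjusted p of 0.475 from limma, so the NE effect on Rgs19 was not shown to differ between the lines.

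The ratio of Rgs17 to Rgs19 per kb within a library contains the line difference of Rgs17 that chose the set, so it is a description that supports nothing. It was 0.104 to 0.118 in vector unstimulated and 0.679 to 0.806 in tSema4B unstimulated libraries, and 0.0590 to 0.0741 in vector NE and 0.165 to 0.275 in tSema4B NE libraries. The ratio was lower in the NE than in the unstimulated libraries of both lines.

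**Figure D4:**
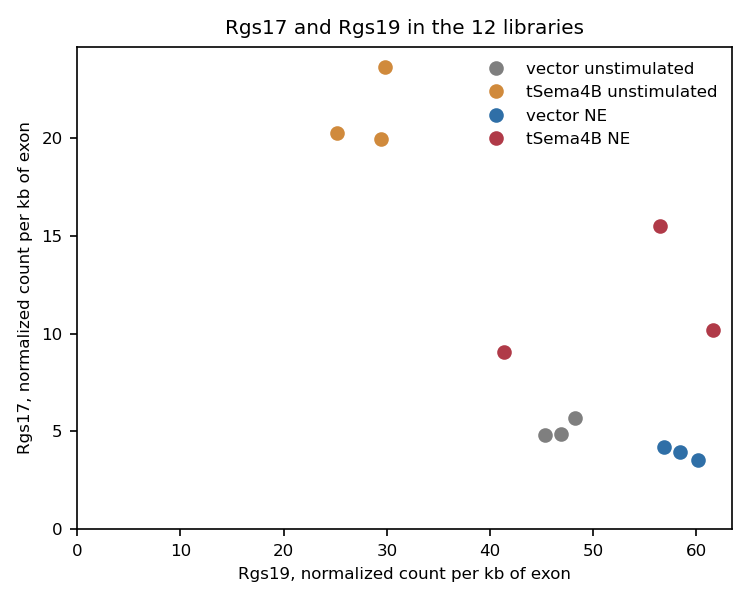
Each point is a library, with the level of Rgs19 on the horizontal and of Rgs17 on the vertical axis, both in normalized counts per kb of exon. The tSema4B unstimulated libraries stand at upper left, the vector libraries at lower right, and the tSema4B NE libraries between them in Rgs17, with ratios of 0.165 to 0.275.

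For the interaction, 0 of the 7 genes other than Rgs2 and Rgs17 passed by adjusted p in limma, and edgeR and DESeq2 on whole reads also gave 0, while each tool gave 2 genes at an unadjusted p under 0.05. In limma these were Rgs5 and Rgs19. The 7 include Rgs16, which passed the filter only through NE libraries, so its result there is no test. Over all genes tested 0.025% passed by adjusted p and 10.2% had an unadjusted p under 0.05.

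Cell type markers differed between the lines beside these genes. Of 7 adipocyte markers 7 were lower in tSema4B cells in both conditions, with the summed level at 40367 to 46107 normalized counts in vector unstimulated, 6689 to 9505 in tSema4B unstimulated, 53550 to 65048 in vector NE and 10609 to 12033 in tSema4B NE libraries. Adipoq, which encodes the hormone adiponectin, fell by 2.49 and 2.29 on the log2 scale (SE 0.11 each). Of 10 preadipocyte and fibroblast markers 8 were higher without stimulation and 9 after NE, with sums of 16796 to 17421 and 31517 to 35827 normalized counts in the vector and tSema4B unstimulated libraries and 13908 to 15989 and 29557 to 31415 after NE. Among 5 brown adipocyte markers Ucp1 was lower in both conditions. Prdm16 (log2 difference -1.17 without stimulation and -0.31 after NE) and Ppargc1a (0.41 and 0.36) did not pass. Cidea passed the filter only through vector libraries and is not counted, and Dio2 had 0 reads in all 12 libraries. In the line with lower adipocyte and higher preadipocyte markers Rgs2 was thus lower in both conditions and Rgs19 without stimulation, and Rgs17 had the higher level, and the part of that difference in the RGS results was not tested. In bulk RNA, fewer cells that express a gene cannot be told apart from less RNA per cell.

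Markers of endothelial cells, macrophages and neurons were also looked at. Of 5 endothelial markers 1 passed the filter and Kdr had 0 reads, and their sum was at most 21.9 normalized counts in any library. Of 5 macrophage markers only Csf1r passed the filter, and only through NE libraries, in which it had means of 11.5 and 15.8 normalized counts against 1.37 and 1.31 without stimulation in vector and tSema4B cells. The sum of that list stayed at or under 24.6. Of 5 neuronal markers only Tubb3 passed, Rbfox3 and Elavl4 had 0 reads, and Tubb3 was higher by 1.40 (SE 0.28, adjusted p = 0.00159) in tSema4B than vector cells without stimulation, while after NE its difference of 0.54 did not pass (adjusted p = 0.196). The summed level of the list, most of it Tubb3, was 28.3 to 38.0 normalized counts in vector and 64.4 to 94.5 in tSema4B unstimulated libraries, and 28.2 to 51.1 and 56.8 to 62.2 after NE. Syt1 and Snap25 had at most 11 and 6 reads in any library. The sum, which mainly describes Tubb3, was thus higher in the line with more Rgs17, and its part in the Rgs17 values was not tested.

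The genes most like each member in pattern were found by Pearson correlation of log2 values over the 12 libraries among 8252 tested genes with a mean of at least 50 normalized counts. The libraries fall into 4 groups, so these values mainly describe the order of 4 group means, and the best of many genes is high by selection. Rgs2 was close to Dnaja3 (0.991) and Hspa9 (0.989), which encode mitochondrial proteins. Hspa9, a mitochondrial chaperone, had means of 2219.8 normalized counts in vector unstimulated, 1507 in tSema4B unstimulated, 3041 in vector NE and 2021 in tSema4B NE libraries. Rgs17 was most like Tmem176b (0.974), Maged1 (0.967) and Colec12 (0.963), and Rgs19 like Api5 (0.949), Osbpl9 (0.948) and Ldha (0.946), the last being a subunit of lactate dehydrogenase.

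The closest patterns to the other members were Tspan6 (0.922) and Slc38a4 (0.904) for Rgs4, Pja2 (0.930) and Snn (0.925) for Rgs3, Gid4 (0.946) for Rgs16, Slc35e1 (0.897) for Rgs5, Tcf19 (0.890) for Rgs12 and Sorbs3 (0.867) for Rgs10. Slc38a4, an amino acid transporter, had means of 297 normalized counts in vector unstimulated, 412 in tSema4B unstimulated, 204 in vector NE and 215 in tSema4B NE libraries, the order of the group means of Rgs4 with the NE groups reversed between the lines. Among the 9 genes themselves the coefficient was 0.831 for Rgs2 with Rgs19, -0.889 for Rgs2 with Rgs17, -0.732 for Rgs17 with Rgs19 and 0.691 for Rgs3 with Rgs4. Coefficients with Rgs2 or Rgs17 contain the values that chose the set, so they are a description that supports nothing.

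The remainder of the RGS family was nearly silent in these cells. Of 14 other RGS genes and RGS-binding proteins 0 passed the filter, 7 had 0 reads in all 12 libraries, among them Rgs1, Rgs7 and Rgs14, and 10 had at most 3 reads in any library. The summed level of the 14 was at most 16.3 normalized counts. Rgs20, the third RZ gene, was the most abundant of them, with at most 17 reads in a library and group means of 4.59 to 6.00 normalized counts. A gene at 0 was not detectable at this depth, since 3 reads were worth 1.78 to 4.64 normalized counts.

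The other proteins with an RGS-like domain, which include the G-protein-coupled receptor kinases and axins, were measured alongside. Of the 12 that passed the filter, Grk4 is left out of all counts and Grk5 of those for NE. They passed the filter only through 1 side of those comparisons. Of the 10 left for NE, 0 passed in either line. Of the 11 left between the lines, 0 passed without stimulation, and Snx14 was higher in tSema4B cells after NE (log2 difference 0.59, SE 0.16, adjusted p = 0.0132). Of 8 other G-protein regulators that passed the filter, Ccdc88a fell by 0.65 (SE 0.17, adjusted p = 0.0249) with NE in tSema4B cells, and Pdcl fell by 0.47 (SE 0.16, adjusted p = 0.0479) in tSema4B cells without stimulation.

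Among the targets of RGS proteins, 9 G-protein alpha subunits passed the filter, and Gnai3, an inhibitory alpha subunit, had the highest level at 379 normalized counts per kb. Of the 9, Gnal passed the filter only through unstimulated libraries and is left out for NE. Gnai2 fell by 0.64 (SE 0.18, adjusted p = 0.0343) with NE in tSema4B cells. Gnao1 was higher by 0.94 (SE 0.32, adjusted p = 0.0388) in tSema4B than vector cells after NE. No other alpha subunit passed among the 8 tested for NE or the 9 tested between the lines. Of 10 beta and gamma subunits, Gng11 was higher in tSema4B than vector cells by 0.84 (SE 0.15, adjusted p = 4.34e-04) without stimulation and by 0.78 (SE 0.15, adjusted p = 7.08e-04) after NE. Gng7 was the gamma subunit called, higher in tSema4B cells after NE by 2.02 (SE 0.39, adjusted p = 7.01e-04), from 8.06 ± 1.24 to 36.0 ± 6.91 normalized counts (SD, n = 3). Among NE-treated cells Gnb1 and Gnb4 were also higher in the tSema4B line, by 0.29 and 0.41. Without stimulation Gng12 was lower in tSema4B than vector cells by a log2 difference of -0.42, and NE raised it in tSema4B cells by 0.35.

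Upstream of the G proteins, the adrenergic receptor genes Adra1a, Adra2a, Adra2b and Adra2c had 0 reads. Adrb3, the beta receptor typical of rodent adipocytes, had means of 129 ± 12.7 and 14.6 ± 9.01 normalized counts (SD, n = 3) in vector and tSema4B unstimulated libraries and 81.7 ± 17.6 and 8.99 ± 2.51 after NE. It passed the filter only through vector libraries, so these levels are a description with no test. Rgs2 was 1.62-fold higher with NE in tSema4B cells, beside the lower level of Adrb3 in that line.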

How the data were processed

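RNAseq libraries were made by the authors with SMART-Seq2 and Nextera XT from 12 samples in 4 groups of 3. Reads were screened with FastQ Screen, aligned with STAR 2.7.9a to mm10 (GRCm38.p4) and counted with htseq-count. Which annotation and strand setting were used, and how multi-mapping reads were handled, is not given in the sources used here. The signal the authors deposited is a normalized count per gene, the read count divided by the size factor of DESeq2, and 100% of values were whole multiples of 1 read (tolerance 0.01), so reads were recovered for edgeR 4.0.16 and DESeq2 1.42.0.

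In R 4.3.3 with limma 3.58.1, log2(normalized count + 1) was fitted for the 11998 genes that reached 10 normalized counts in 3 or more libraries, in 1 model of the 4 groups with a variance trend. P-values were two-sided and adjusted by Benjamini-Hochberg over all genes tested. The script was tested on simulated data. Depth was 2000780 to 5409583 reads a library. Intervals and limits at 0 reads cover counting error or the spread of these libraries only.

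Positions and exon lengths came from GENCODE M21 (GRCm38), which matched 9 of 9 members, and promoters from RefSeq. The members and gene lists were chosen with earlier results of these data known. Named genes are the members, the 3 genes most like each in pattern, and list genes that were called or most abundant; other names were chosen after their values were seen. Some genes that the rule gives are not reported here. Alternatives were pseudocounts of 0.5 and 10, no filter or a filter at 50, 3 other scalings, edgeR, DESeq2, only the libraries compared, the replicate block, the adjusted p alone and each library left out; thinned reads were added after seeing the data. Labels share replicate numbers, but same-numbered libraries deviated with correlations of -0.047 to 0.028 over 18 pairs, so they were not paired.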

Additional observations from a re-analysis of the deposited data

How the results depend on the processing

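Of 830 values of the 45 differences under the alternatives, 784 kept their direction and their side of the threshold, 21 lost the threshold, 3 gained it and 22 changed sign, all 22 of differences that did not pass the test. With NE in vector cells 2 genes were called, and 1 with a pseudocount of 10, with no filter and with a filter at 50 normalized counts, and 0 to 1 with a library left out. With NE in tSema4B cells 1 was called, 5 by the adjusted p alone, and 1 to 2 with a library left out. Between the lines the 1 gene called in each condition was Rgs17, whose values chose the set, so those calls are not counted here. The NE responses of Rgs2 and Rgs17 are among the counts in tSema4B cells, and all values of both genes are among the 830. For the values that chose the set, these totals are a description and say nothing of stability. The counts by adjusted p alone lack the limit on the fold change by construction. Otherwise the cause was not tested.

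The sign changed for Rgs10 with NE in vector cells with thinned reads (-0.22) and between -0.21 and 0.44 with a library left out. Between the lines without stimulation it changed for Rgs3 with the same total over nuclear genes (-0.079), thinned reads (-0.14) and edgeR (-0.0043), and with a library left out (-0.19 to 0.16), and for Rgs16 with a library left out (-0.71 to 0.93). After NE it changed with a library left out for Rgs4 (-0.62 to 0.074), Rgs12 (-0.28 to 0.038) and Rgs19 (-0.27 to 0.012). The interaction changed sign for Rgs2 with the same total over all genes (0.050) or nuclear genes (0.017), with quantile normalization (0.028) and with a library left out (-0.094 to 0.062), and for Rgs16 with a library left out (-1.54 to 0.093). With the replicate number as a block, Rgs12 with NE in tSema4B cells no longer passed the test (log2 difference -0.84, adjusted p = 0.0513), and every other difference of a member that passed still did.

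Depth limits Rgs5 and Rgs16 most, with 0 to 28 and 0 to 36 reads a library. The vector NE libraries were the deepest, and each construct was a single line.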
